A study of Mus musculus with 10 samples.

Results

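The MYC, MYCL and MXD network is described here through 9 genes, taken by symbol from a fixed roster of the network's factors: Myc, Mycl, Max, Mxd1, Mxd3, Mxd4, Mxi1, Mnt and Mga. All 9 were among the 19178 gene rows of the count table and among the 18248 genes tested. Dendritic cells take up antigen and present it to T cells, and their polyadenylated RNA had been sequenced from mice in 10 libraries, 5 labelled Ptbp1 deficient and 5 labelled WT (wild type). Mice of both genotypes were 8 to 10 weeks old, and no treatment is given. Neither the tissue of origin, the sex, the deleted part of Ptbp1 and any Cre driver, nor separate mice for each library are stated in the labels, so each p-value rests on the scatter of these libraries, which may be technical. Ptbp1 encodes a splicing regulator that binds pyrimidine-rich RNA, and the comparison asks how transcripts differ when dendritic cells are deficient in it.

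MYC proteins are transcription factors that bind DNA as dimers with MAX, mostly at the E-box, and activate genes of growth, metabolism and ribosome production. MXD proteins, MXI1 and MNT compete for MAX and for the same sites, and recruit SIN3 corepressors, so that the balance of the members bears on proliferation and differentiation. In the dendritic cell lineage MYCL is the MYC paralog best known from mature conventional cells, where it has been linked to T cell priming, whereas MYC is best known from progenitors.

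The libraries labelled Ptbp1 deficient held 74.4 ± 1.08 (SD, n = 5) Ptbp1 CPM, that is counts scaled to the TMM-normalized library size, against 294 ± 21.1 (n = 5) in WT. Counts in genes were 61759378 to 92697815 per deficient library and 50516163 to 66153758 per WT library, so that each member held at least 391 and at most 23283 counts in any library. General dendritic cell markers were abundant in every library. Their 13 genes summed to 33778 to 36954 CPM in deficient and 28426 to 34679 CPM in WT libraries. Most of this sum came from Cd74, H2-Ab1 and H2-Aa. Their means were 13828, 8999 and 7049 CPM in deficient and 13470, 8395 and 5814 CPM in WT libraries. Libraries WT 1 and WT 5 stood apart by their macrophage markers: 13 such genes summed to 2603 CPM in WT 1 and 3823 CPM in WT 5, against 1279 to 1334 CPM in the other WT libraries. Deficient libraries 1 and 2 held the least, 392 and 376 CPM, against 907 to 1064 CPM in deficient libraries 3 to 5. WT 5 also had the highest sums of B cell (774 CPM), T cell (69.1 CPM) and neutrophil (864 CPM) markers. Between the genotypes, 10 of 12 markers of cDC2, the other conventional dendritic cell subset, fell (summed level 1523 to 1664 CPM in deficient and 2273 to 2575 CPM in WT libraries), as did 10 of 13 macrophage and 11 of 12 B cell markers (124 to 153 and 170 to 774 CPM). Of 10 NK cell markers 6 rose and 1 fell (228 to 323 and 133 to 160 CPM). Of 10 markers of plasmacytoid dendritic cells (pDC), 6 fell and 2 rose. Of 9 T cell markers 0 passed, and of 9 neutrophil markers 1 fell. When WT 1 and 5 were left out, 10 cDC2, 6 macrophage and 8 B cell markers fell, and 1 B cell marker rose. In that fit 9 NK cell markers rose and 1 fell, and 4 pDC markers rose and 6 fell. There, 5 T cell markers rose, and 7 neutrophil markers rose and 1 fell. The part of all these markers in the differences of the 8 members that passed was not tested. Macrophage sums did not overlap between the genotypes (376 to 1064 CPM in deficient and 1279 to 3823 CPM in WT libraries). Fits with a macrophage covariate, given below, therefore cannot divide a difference between genotype and these markers. In bulk RNA, fewer cells of a type and less RNA per cell cannot be told apart.

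The promoters of 4 members are shown because the 300 bases from 250 before to 50 after the annotated start held the E-box that this network binds or an E2F motif. They are RefSeq sequences on GRCm38.p6, written 5′ to 3′ along the gene's own strand, with the match in capitals. Promoters were found by symbol for 8 members, in 10 windows because Mxi1 has 3 annotated starts, and not for Myc. The canonical E-box, CACGTG, was found in the windows of Max (chr12:76962199-76962498, minus strand), Mnt (chr11:74830674-74830973, plus strand) and Mxd4 (chr5:34187661-34187960, minus strand). A letter match to an E2F site, GCGGGAA on either strand, was found in the window of Mxd3 (chr13:55329682-55329981, minus strand).
Max: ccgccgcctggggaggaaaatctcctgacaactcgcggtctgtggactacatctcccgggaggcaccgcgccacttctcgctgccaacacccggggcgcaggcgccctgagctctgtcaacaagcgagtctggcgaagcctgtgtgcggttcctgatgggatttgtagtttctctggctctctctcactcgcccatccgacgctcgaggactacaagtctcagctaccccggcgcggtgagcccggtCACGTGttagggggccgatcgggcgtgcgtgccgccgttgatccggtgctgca
Mnt: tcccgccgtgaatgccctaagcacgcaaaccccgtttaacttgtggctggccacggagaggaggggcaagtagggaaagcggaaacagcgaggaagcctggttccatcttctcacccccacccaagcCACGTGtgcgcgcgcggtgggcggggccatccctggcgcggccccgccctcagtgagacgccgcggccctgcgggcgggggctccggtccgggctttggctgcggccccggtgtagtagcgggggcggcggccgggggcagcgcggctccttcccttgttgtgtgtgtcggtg
Mxd4: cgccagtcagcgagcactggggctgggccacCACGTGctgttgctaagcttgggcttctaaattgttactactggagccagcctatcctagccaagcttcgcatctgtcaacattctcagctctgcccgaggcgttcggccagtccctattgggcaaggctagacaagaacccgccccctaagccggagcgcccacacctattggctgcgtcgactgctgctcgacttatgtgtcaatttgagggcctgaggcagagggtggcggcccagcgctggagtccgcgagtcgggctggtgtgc
Mxd3: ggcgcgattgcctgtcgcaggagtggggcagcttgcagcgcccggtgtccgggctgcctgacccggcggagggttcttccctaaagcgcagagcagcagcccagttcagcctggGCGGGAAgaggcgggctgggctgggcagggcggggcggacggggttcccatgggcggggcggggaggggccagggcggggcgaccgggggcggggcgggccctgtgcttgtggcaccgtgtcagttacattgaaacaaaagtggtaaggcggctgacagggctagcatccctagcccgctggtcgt

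The E-box began 3 bases before the start in Max, 123 bases before it in Mnt and 219 bases before it in Mxd4. Of all 32851 promoter windows in the table, 7.15% held this motif on either strand, which reads the same on both, and 4.60% held the E2F motif, which in Mxd3 began 136 bases before the start. The interferon-stimulated response element GAAANNGAAA, present in 3.44% of windows, matched none of the 10 windows of members. The ETS and IRF composite element GGAANNGAAA, present in 2.72%, differs from the former in 1 letter and matched 1 Mxi1 window (chr19:53329163-53329462, plus strand), 163 bases before that start. The 3 members with the E-box moved in different directions, as given next: Max rose, whereas Mnt and Mxd4 fell. Letter matches are not evidence of binding.

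In Ptbp1-deficient dendritic cells, Mycl, Max and Mxd3 were higher than in WT, and Mxd1, Mxd4, Mxi1, Mnt and Mga were lower, while Myc itself did not pass the test. By edgeR's quasi-likelihood test, 8 of the 9 members passed an adjusted p under 0.05, 3 upward and 5 downward. Of all genes tested 45.0% passed, 21.9% upward and 23.1% downward, so a called gene is common here. The values of 7 members did not overlap between the groups, as was so for 33.4% of all genes. The median absolute log2 fold change was 0.30 over the members and 0.28 over all genes tested, and only Mxd3 among the members changed by over 1 on that scale. All 8 passed also without WT 1 and 5, and without deficient libraries 1 and 2.

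**Figure D1:**
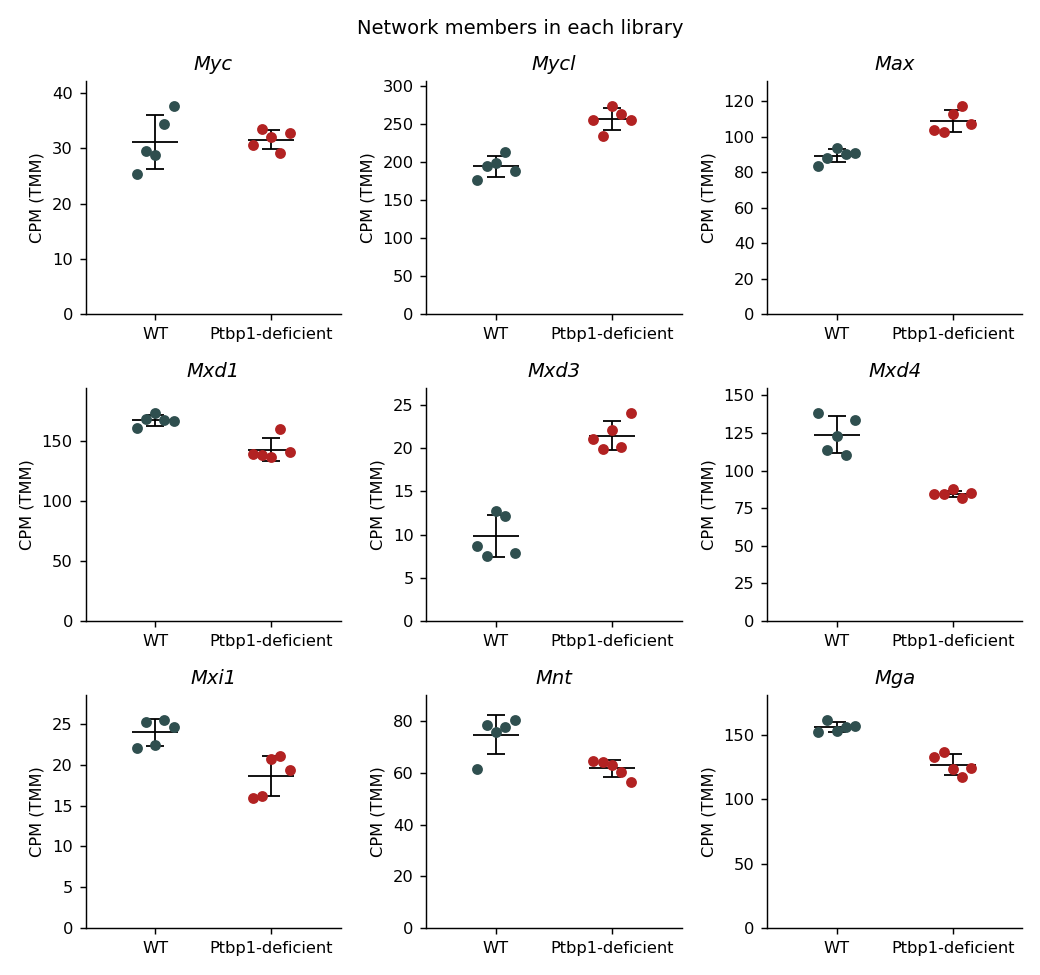
Each panel plots 1 member, with TMM-normalized CPM from 0 on the linear vertical axis, a point for each library (replicates 1 to 5 from left to right within a group) and the mean with its SD as a bar. The points of the genotypes are separate in every panel except Myc and Mnt.

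Myc, the founding activator of the network and an immediate-early gene of growth stimulation (ENSMUSG00000022346, protein coding, chr15:61985391-61990374, plus strand of GRCm38, as for all loci given here), was the least divided of the members. WT libraries 1 to 5 had 25.4, 29.5, 28.9, 34.5 and 37.7 CPM, and deficient libraries 1 to 5 had 30.6, 33.6, 32.0, 29.1 and 32.7 CPM. Both the lowest and the highest values were WT libraries, and the deficient values lay between them. The means were 31.6 ± 1.78 (deficient) and 31.2 ± 4.87 CPM (WT; SD, n = 5 each; log2 fold change 0.02, SE 0.094, adjusted p = 0.89). The coefficient of variation over libraries was 15.6% in WT and 5.63% in the deficient group. The interval spanned by the alternatives was -0.10 to 0.10, with values on both sides of 0 and an adjusted p of at least 0.34 in each.

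Mycl, which encodes L-MYC and lies on chr4:122995652-123002485 (plus strand; ENSMUSG00000028654, protein coding), was the most abundant member and rose. Its WT libraries 1 to 5 had 176, 196, 199, 214 and 188 CPM, and its deficient libraries 1 to 5 had 256, 235, 274, 264 and 256 CPM. Every deficient library was above every WT library, the nearest being deficient 2 at 235 and WT 4 at 214 CPM. The group means were 257 ± 14.3 and 195 ± 14.0 CPM, a 1.32-fold difference (log2 fold change 0.40, SE 0.057, adjusted p = 1.6e-04). Without WT 1 and 5 the direction and the call were as before. All 12 markers of cDC1, the conventional dendritic cells that cross-present antigen, also rose (median log2 fold change 1.01), and their summed level was 6984 to 8573 CPM in the deficient group against 3739 to 5174 CPM in WT. With WT 1 and 5 left out, 11 of the 12 rose. Within WT, Mycl was lowest in WT 1 and next lowest in WT 5, as was the cDC1 sum (3739 and 4120 CPM). The sum of the 13 general dendritic cell markers had the same order (28426 and 28855 CPM, against 33693 to 34679 CPM in the other WT libraries). The part of either sum in the Mycl difference was not tested.

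Max, the shared partner without which MYC and MXD proteins do not bind DNA, lies on chr12:76937269-76962201 (minus strand; ENSMUSG00000059436, protein coding) and rose modestly. Counts gave 83.7, 88.2, 93.8, 90.4 and 91.0 CPM in WT libraries 1 to 5 and 104, 103, 113, 117 and 107 CPM in deficient libraries 1 to 5. The groups were apart, with WT 1 the lowest library. The means were 109 ± 6.09 and 89.4 ± 3.78 CPM (log2 fold change 0.28, SE 0.047, adjusted p = 4.8e-04). In the authors' deposited FPKM, a level scaled to transcript length and library size, the call ended: the log2 fold change was 0.14 and limma's adjusted p 0.060. There, WT 1 at 43.3 FPKM lay within the deficient range of 40.0 to 45.5 FPKM, whereas the other WT libraries lay between 36.4 and 38.8 FPKM.

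The MXD repressors did not move as a block, since 1 rose and 3 fell. Mxd3, the MXD member best known from proliferating cells (ENSMUSG00000021485, protein coding, chr13:55325168-55329823, minus strand), showed the largest difference of the 9. It had 8.73, 7.58, 12.8, 12.2 and 7.89 CPM in WT libraries 1 to 5 and 21.0, 19.9, 22.0, 20.2 and 24.1 CPM in deficient libraries 1 to 5. In CPM the lowest deficient library stood well above the highest WT library, WT 3. Within WT the libraries split into a higher pair, WT 3 and 4, and 3 lower ones. In deposited FPKM the gap was narrow, with WT 3 at 8.65 and deficient library 4, the lowest, at 8.75 FPKM. The log2 fold change there was 0.84 with a pseudocount of 1. The means were 21.4 ± 1.69 and 9.82 ± 2.45 CPM, a 2.18-fold difference (log2 fold change 1.13, SE 0.15, adjusted p = 8.2e-05). A list of 25 cell cycle genes rose in full (25 of 25, median log2 fold change 1.06), with or without WT 1 and 5 and with or without deficient libraries 1 and 2. Its genes of smallest adjusted p were Ube2c, Ccnb2 and Cenpe. Ube2c, which loads ubiquitin for the anaphase-promoting complex, rose by 1.64 on the log2 scale (adjusted p = 2.7e-07). The mitotic cyclin gene Ccnb2 rose by 1.39 (adjusted p = 2.7e-07) and the kinetochore motor gene Cenpe by 1.34 (adjusted p = 4.2e-07). The summed level of the list was 2174 to 2369 CPM in deficient and 966 to 1369 CPM in WT libraries. WT 3 and 4 (1369 and 1337 CPM) were above the other WT libraries, the same pair that was higher in Mxd3. The part of these genes in the Mxd3 difference was not tested.

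Mxd3 shares 105 bases of exon with Prelid1, a gene of mitochondrial lipid transfer on the opposite strand, which rose to 171 ± 4.86 CPM from 122 ± 7.76 in WT (log2 fold change 0.49, adjusted p = 9.5e-06). Whether the counting used strand is not known here. The deposited counts hold a separate row for ambiguous reads, 1.78% to 1.94% of all counts in a library. Whether reads from the shared bases went to that row or to a gene cannot be told. Rab24, the nearest protein-coding gene at lower coordinates, rose as well (log2 fold change 0.33, adjusted p = 0.0010). Lman2, at higher coordinates, rose by 0.11 (adjusted p = 0.032), a call lost in 13 of the 23 alternatives.

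Mxd4, associated with cells leaving the cycle, lies on chr5:34173883-34187720 (minus strand; ENSMUSG00000037235, protein coding) and fell the most. It stood at 138, 114, 123, 110 and 134 CPM in WT libraries 1 to 5 and at 84.6, 84.5, 87.5, 81.8 and 85.3 CPM in deficient libraries 1 to 5. The groups were far apart, and WT 1 and WT 5, the libraries with the most macrophage markers, were the highest. Among deficient libraries the macrophage sum ran from 376 to 1064 CPM, below all WT libraries (1279 to 3823 CPM), and Mxd4 from 81.8 to 87.5 CPM. The part of these markers in the Mxd4 difference was not tested. The means were 84.7 ± 2.02 and 124 ± 12.2 CPM, the former being 68.4% of the latter (log2 fold change -0.55, SE 0.061, adjusted p = 2.9e-05). Over all alternatives run, those without WT 1 and 5 and with a macrophage score covariate included, the value lay between -0.60 and -0.45 and the adjusted p was at most 0.0017. The coefficient of variation was 9.85% in WT and 2.39% in the deficient group. An antisense gene, Gm42846, shares 514 bases of exon with Mxd4 and has no row in the count table.

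Mxd1, the MXD member induced in maturing myeloid cells, lies on chr6:86647042-86669161 (minus strand; ENSMUSG00000001156, protein coding) and fell slightly. Its WT libraries 1 to 5 had 161, 168, 174, 168 and 167 CPM, and its deficient libraries 1 to 5 had 140, 138, 137, 160.0 and 141 CPM. Deficient library 4 came close to the lowest WT library, and the other deficient libraries were well below it. The means were 143 ± 9.55 and 168 ± 4.44 CPM (log2 fold change -0.23, SE 0.047, adjusted p = 0.0021).

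Mxi1, also known as Mxd2 (ENSMUSG00000025025, protein coding, chr19:53310518-53375810, plus strand), was the least abundant member per length and fell. WT libraries 1 to 5 gave 22.0, 25.3, 22.5, 25.6 and 24.7 CPM, and deficient libraries 1 to 5 gave 15.9, 16.2, 20.7, 21.1 and 19.3 CPM. The groups did not overlap, but deficient libraries 3 to 5 were near the lowest WT values and deficient libraries 1 and 2 were lower. Its means were 18.6 ± 2.47 and 24.0 ± 1.62 CPM (log2 fold change -0.36, SE 0.089, adjusted p = 0.0060). Deficient libraries 1 and 2 were also those with the smallest macrophage sums. Adding the macrophage score as a covariate ended the call (log2 fold change -0.17, adjusted p = 0.22). Macrophage sums did not overlap between the genotypes, so that fit cannot divide the Mxi1 difference between genotype and these markers. Without deficient libraries 1 and 2 the difference was smaller (-0.24, adjusted p = 0.022). Gm10197, on the opposite strand, shares 194 bases of exon with Mxi1 and has no row in the count table.

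Mnt and Mga, the large MAX partners, both fell. Mnt, a broadly expressed repressor that antagonizes MYC (ENSMUSG00000000282, protein coding, chr11:74830920-74845725, plus strand), had 61.6, 78.5, 75.7, 77.9 and 80.6 CPM in WT libraries 1 to 5. Deficient libraries 1 to 5 had 64.6, 64.4, 63.1, 60.3 and 56.4 CPM of it. The groups overlapped through WT 1 alone, which lay below 3 deficient libraries, whereas WT 2 to 5 were above all deficient libraries. The means were 61.7 ± 3.45 and 74.9 ± 7.60 CPM (log2 fold change -0.28, SE 0.071, adjusted p = 0.0071).

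Mga, which encodes a scaffold that pairs with MAX in a noncanonical Polycomb complex, PRC1.6 (ENSMUSG00000033943, protein coding, chr2:119897228-119969581, plus strand), had 153, 162, 153, 157 and 157 CPM in WT libraries 1 to 5. In deficient libraries 1 to 5 it had 133, 137, 123, 117 and 124 CPM, all below WT. The means were 127 ± 7.98 and 156 ± 3.78 CPM (log2 fold change -0.30, SE 0.046, adjusted p = 2.8e-04).

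**Figure D2:**
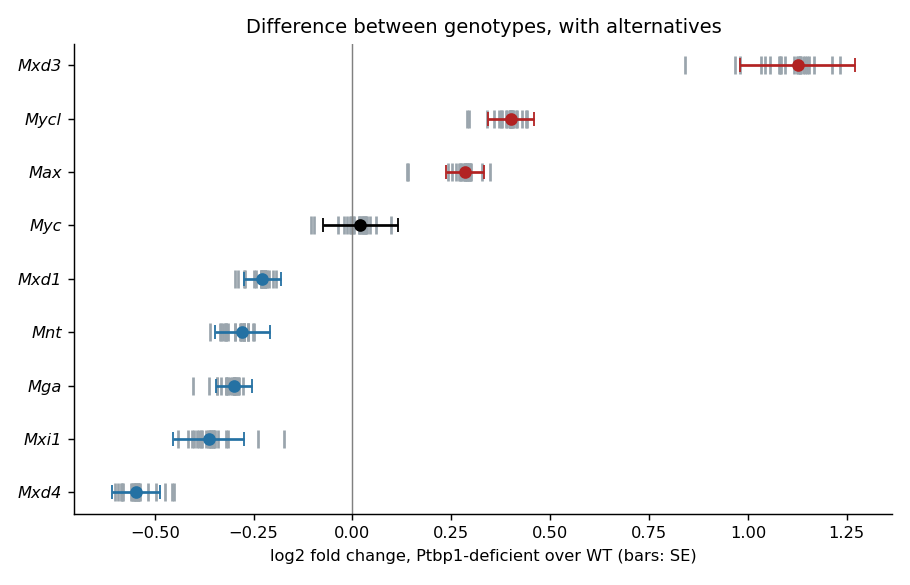
Log2 fold change of each member, Ptbp1-deficient over WT, on the horizontal axis, with members as rows; the dot is the edgeR value with its SE, red where it rose, blue where it fell and black where it did not pass, and the grey ticks are the 23 alternatives. The ticks of Myc straddle 0, while those of the other members keep to 1 side, with Max reaching 0.14 and Mxi1 reaching -0.17.

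Levels can be compared between genes only per length, for which the authors' deposited FPKM were used. In WT the order of mean FPKM was Mycl (50.5 ± 1.96), Max (38.6 ± 2.76), Mxd1 (35.8 ± 0.46), Mxd4 (31.8 ± 3.83), Mnt (15.6 ± 1.17), Mga (14.8 ± 1.71), Myc (11.0 ± 1.62), Mxd3 (5.04 ± 2.18) and Mxi1 (4.71 ± 0.24; SD, n = 5). Library ranges of neighbours in this order overlapped for Mxd1 and Mxd4, Mnt and Mga, Mga and Myc, and Mxd3 and Mxi1, whereas the steps from Mycl to Max, from Max to Mxd1, from Mxd4 to Mnt and from Myc to Mxd3 had no overlap. In the deficient group the order of genes was the same, and the means were 62.0 ± 3.06 for Mycl, 42.6 ± 2.20 for Max, 29.2 ± 1.81 for Mxd1, 20.8 ± 0.57 for Mxd4 and 12.4 ± 0.86 FPKM for Mnt. Below these stood Mga (11.8 ± 2.32), Myc (10.1 ± 0.63), Mxd3 (9.37 ± 0.72) and Mxi1 (3.45 ± 0.37 FPKM). There the ranges of Mnt, Mga, Myc and Mxd3 overlapped from each to the next, and Mxd1 and Mxd4 no longer did.

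**Figure D3:**
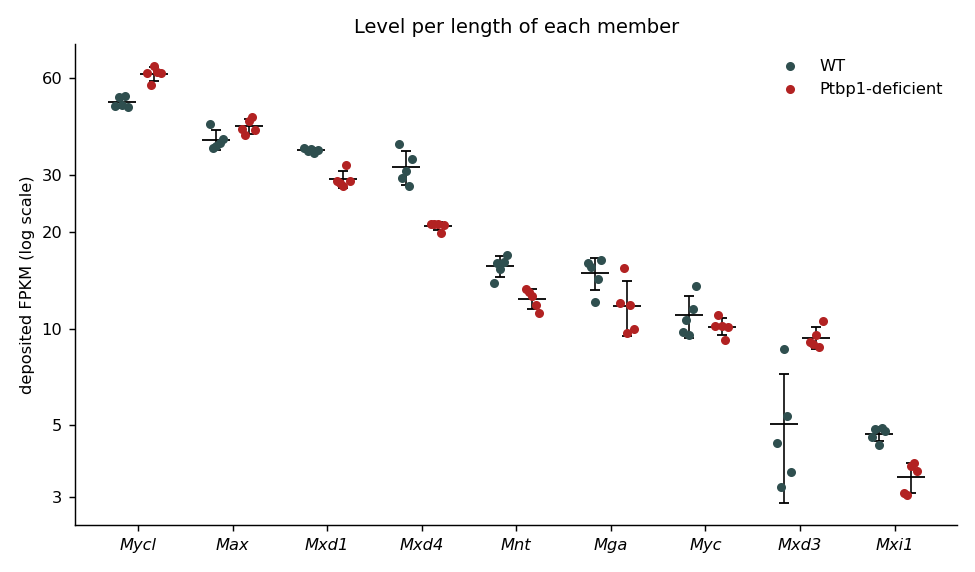
Deposited FPKM of the 9 members on a logarithmic vertical axis, ordered by their WT mean, with a point for each library and the mean with its SD for each genotype. Mycl is highest in both genotypes, Mxd3 sits near Mxi1 in WT and near Myc in the deficient group, and 1 WT library (WT 3, 8.65 FPKM) stands above the other WT values of Mxd3.

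The balance of MXD and MYC genes was described in CPM per kilobase of annotated exon. The sum over Mxd1, Mxd3, Mxd4 and Mxi1 was divided by that over Myc and Mycl. Mnt, which also antagonizes MYC, was not part of either sum. The ratio was 0.87, 0.74, 0.80, 0.69 and 0.76 in WT libraries 1 to 5, and 0.55, 0.57, 0.53, 0.58 and 0.57 in deficient libraries 1 to 5. All deficient libraries were below all WT libraries, and the log2 ratio was lower by a mean of 0.47 (log2 difference -0.47). Without WT 1 and 5 the difference was -0.41, and with deposited FPKM it was -0.53. The MYC sum was 75.3 ± 3.26 and 59.7 ± 4.54 CPM per kilobase in the deficient and WT groups, and the MXD sum 42.0 ± 1.46 and 46.0 ± 1.32. Mycl made up 84.5% ± 1.32 of the MYC sum in the deficient group and 80.8% ± 2.19 in WT. The share of Mxd3 in the MXD sum was 21.6% ± 1.57 against 9.0% ± 2.1. With FPKM that share was 14.9% ± 1.10 in the deficient group and 6.5% ± 2.67 in WT. The ratio itself depends on the length scale, being 0.87 ± 0.035 in the deficient group and 1.26 ± 0.12 in WT with FPKM. These sums are given without a test, since their parts were chosen with earlier results known and tested singly above.

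**Figure D4:**
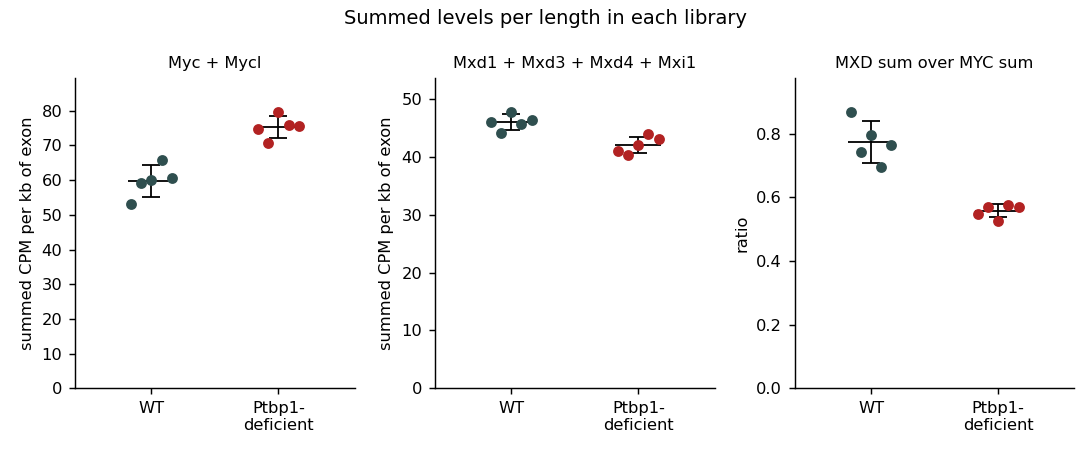
Summed CPM per kilobase of exon of Myc and Mycl (left), of the 4 MXD genes (middle) and the ratio of the second to the first (right) on linear axes from 0, with a point for each library and the mean with its SD. The MYC sums of the deficient libraries (70.6 to 79.7) lie above those of WT (53.0 to 65.7), and the ratios of the deficient libraries (0.53 to 0.58) lie below those of WT (0.69 to 0.87).

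**Figure D5:**
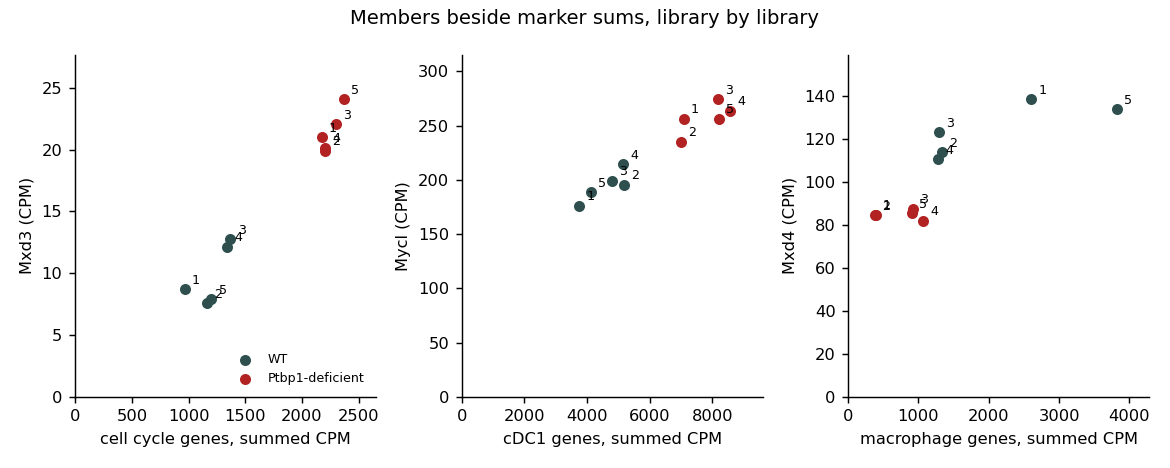
Mxd3, Mycl and Mxd4 in CPM (vertical axes, from 0) beside the summed CPM of 25 cell cycle, 12 cDC1 and 13 macrophage genes, with each library's replicate number. Within WT, libraries 3 and 4 are high in both Mxd3 and the cell cycle sum. WT libraries 1 and 5 are low in both Mycl and the cDC1 sum, and high in both Mxd4 and the macrophage sum. In the deficient group, Mxd4 runs from 81.8 to 87.5 CPM and the macrophage sum from 376 to 1064 CPM, both below all WT libraries. The part of each sum in the difference of its member was not tested.

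Relatives of the network outside the 9 were taken from lists. MLX is the MAX-like partner of a parallel branch that senses sugar, and Mlx did not pass the test (32.0 and 29.4 CPM in the deficient and WT groups). Mlxip, which encodes its partner MondoA, was at 127 ± 6.34 CPM against 157 ± 6.19 and fell (log2 fold change -0.31, adjusted p = 1.8e-04). The MYC paralogs Mycn and Mycs and the MLX partner Mlxipl have no row in the count table. Of 6 other leucine zipper factors that bind E-boxes, Tfe3, a regulator of lysosomal genes, passed and fell (log2 fold change -0.18, adjusted p = 0.0049), and 5 did not pass. With WT 1 and 5 left out, 2 of the 6 rose and 1 fell, whereas without deficient libraries 1 and 2, as with upper-quartile normalization, 2 fell and 0 rose.

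Subunits of the SIN3 complex, which the MXD proteins recruit, showed 6 rises and 2 falls among 18, with 10 not passing. Thus 44.4% passed, against 45.0% of all genes tested. The median log2 fold change was 0.07 against -0.03 over all genes. The histone chaperones Rbbp7 (log2 fold change 0.42, adjusted p = 0.0011) and Rbbp4 (0.26, adjusted p = 0.0013) rose. The scaffold Sin3a fell by 0.14 on the log2 scale (adjusted p = 0.0079). Without WT 1 and 5, 4 rose and 2 fell, whereas upper-quartile normalization gave 4 rises and 4 falls and FPKM gave 3 and 3. Over all genes, upper-quartile normalization gave 3456 rises and 4845 falls, and FPKM gave 2435 and 3261.

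Partners of MGA in PRC1.6 showed 5 rises and 2 falls among 11 (median 0.08), so that 63.6% passed, against 45.0% of all genes tested. Rnf2, the RING1B ubiquitin ligase, was at 26.7 ± 0.67 CPM against 36.5 ± 1.87 and fell (log2 fold change -0.45, adjusted p = 1.2e-05). Tfdp1, the DP1 partner of E2F factors, rose (0.45, adjusted p = 5.9e-05), as did the heterochromatin protein gene Cbx3 (0.41, adjusted p = 1.2e-04). Without WT 1 and 5, as with upper-quartile normalization, the counts were 3 and 2, and in FPKM they were 3 and 3.

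MYC coactivators included 2 rises and 6 falls among 17 (median -0.05), so that 47.1% passed, against 45.0% of all genes tested. The rises were in Actl6a (log2 fold change 0.30, adjusted p = 1.1e-04), a chromatin remodeller subunit, and Ruvbl1 (0.40, adjusted p = 3.6e-04), an AAA ATPase. Bptf, a nucleosome remodeller, fell (-0.24, adjusted p = 0.0031). Without WT 1 and 5, 2 rose and 4 fell, whereas upper-quartile normalization gave 2 and 9. That normalization gave 3456 rises and 4845 falls over all genes.

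Among 16 measured genes that set MYC protein stability, 3 rose and 6 fell (median -0.01), and Skp2 and Fbxo32 have no row. Of the 16, 56.25% passed, against 45.0% of all genes tested. Cip2a, an inhibitor of the phosphatase that destabilizes MYC, rose to 37.9 ± 2.59 CPM from 18.1 ± 1.47 in WT (log2 fold change 1.07, adjusted p = 5.9e-07). Aurka, a mitotic kinase also known to stabilize MYC family proteins, rose as well (1.02, adjusted p = 1.7e-05). Huwe1, a ubiquitin ligase for MYC, fell (-0.37, adjusted p = 6.4e-05). Under the macrophage covariate 3 rose and 2 fell, and 6388 of all genes passed, against 8214 without it.

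Of 58 genes widely used as MYC targets, mainly of ribosome production and nucleotide metabolism, 22 rose, 7 fell and 29 did not pass, and the median log2 fold change was 0.09. Of all genes tested 21.9% rose and 23.1% fell. The nucleolar protein gene Ncl rose to 532 ± 20.8 CPM from 382 ± 18.6 in WT (log2 fold change 0.48, adjusted p = 1.0e-05). Ldha, which encodes lactate dehydrogenase A, rose to 432 ± 24.3 CPM from 281 ± 29.5 in WT (0.62, adjusted p = 3.4e-05), and Nme1, a nucleoside diphosphate kinase gene, rose to 19.8 ± 1.58 CPM from 12.4 ± 1.30 in WT (0.68, adjusted p = 6.4e-05). Of the 7 falls, 3 had no overlap between the groups: Imp4, of ribosomal RNA processing (Imp4 log2 fold change -0.19, adjusted p = 0.0017, but 0.062 in FPKM), Tfb2m (-0.26, adjusted p = 0.0021), a mitochondrial transcription factor gene, and Dusp2 (-0.54, adjusted p = 0.0026), a phosphatase gene. Without WT 1 and 5, 24 rose and 10 fell, and without deficient libraries 1 and 2, 21 rose and 7 fell. Under the macrophage covariate the counts were 15 and 9. Over all genes that covariate gave 3161 rises and 3227 falls. In FPKM the counts for the targets were 15 and 8 of 57, and their median was 0.01. All 11968 genes in FPKM had a median of -0.05, with 2435 rises and 3261 falls.

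The neighbours of the members along the chromosome were mixed in direction. Of 18 nearest protein-coding neighbours, 16 were tested, 5 rose, 4 fell and 7 did not pass. Among all genes tested, 21.9% rose and 23.1% fell. Mfsd2a, a lysophospholipid transporter gene 34463 bases below Mycl, rose to 7.21 ± 0.94 CPM from 3.98 ± 0.21 in WT (log2 fold change 0.86, adjusted p = 4.3e-05), whereas Trit1, on the other side of Mycl, rose by 0.13 (adjusted p = 0.024), a call lost in 9 of the 23 alternatives, of which the FPKM fits also turned its direction. Beside Mxd1, the skin protease gene Asprv1 fell as Mxd1 did (-0.49, adjusted p = 8.0e-06), and Snrnp27, which encodes a spliceosomal protein, rose (0.56, adjusted p = 3.8e-05). Haus3, of the spindle-building augmin complex, fell beside Mxd4 (-0.32, adjusted p = 5.4e-04). Fut8, a fucosyltransferase gene, fell beside Max (-0.24, adjusted p = 0.0032), against the direction of Max, and that call ended with the macrophage covariate (-0.20, adjusted p = 0.065). Sgsm2, beside Mnt, fell (-0.22, adjusted p = 0.024), a call lost without deficient library 3 (adjusted p = 0.060) or without WT 4 (adjusted p = 0.058). Neither tested neighbour of Mga or of Mxi1 passed, and the nearest neighbours of Myc have no row in the count table.

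Over the 10 libraries, the genes whose gene-centred log2 CPM lay nearest to Mycl among 9820 protein-coding candidates of at least 5 CPM were Btf3, a translation-associated factor gene (root mean square difference 0.027), the clathrin adaptor gene Ap2s1 (0.030) and the ubiquitin ligase gene Rnf144b (0.030). Btf3 stood at 379 ± 18.6 CPM in deficient and 289 ± 16.2 CPM in WT libraries, Ap2s1 at 91.6 ± 6.01 and 67.8 ± 3.88 CPM, and Rnf144b at 113 ± 3.91 and 86.5 ± 6.77 CPM. Nearest to Myc were Eva1b (0.072) and the RNA-binding protein gene Hnrnpa3 (0.075), so the best likeness was looser for Myc than for Mycl. Hnrnpa3 had 121 ± 9.07 CPM in deficient and 119 ± 22.1 CPM in WT libraries. These genes were chosen for their likeness over the same libraries, so their values carry no test.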

How the data were processed

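The authors deposited unnormalized counts per gene, and FPKM for a smaller table that held 11968 genes. HISAT2, StringTie, DESeq2 and the build GRCh38 are named in the submitters' processing notes, without versions, whereas the deposited gene rows carry Ensembl mouse IDs. Not given in the sources used here are the counting tool, its use of strand and the tool behind the FPKM. Paired reads of 150 bases were sequenced, per the labels' protocols.

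Symbols and loci came from GENCODE M21 (GRCm38). Genes were filtered with filterByExpr, which removed 930, normalized with TMM and tested with edgeR 4.0.16 (quasi-likelihood F test, under R 4.3.3) with genotype as the only term. Genes were called at a Benjamini-Hochberg adjusted p under 0.05 over all 18248 genes. The SE is the log2 fold change divided by the root of F. FPKM were tested with limma 3.58.1 on log2(FPKM + 1), or with a pseudocount of 0.1, so these fold changes understate those of low genes. The script was tested on simulated data. The macrophage score is the mean log2 CPM (prior count 2) of the macrophage markers.

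Members, lists and tests were chosen with earlier results of these data known. Named were the 9 members, up to 3 called genes of smallest adjusted p in each of 8 pathway lists, neighbours and overlapping genes, the 3 genes most like Myc and Mycl, and Ptbp1. Of these, 1 is not reported here. Imp4, Tfb2m and Dusp2 were named after their values were seen. Alternatives were DESeq2 1.42.0, limma-voom with quality weights, upper-quartile and RLE normalization, 2 other filters, the replicate number as a block, FPKM, an adjusted p under 0.01, leaving out each library, leaving out WT 1 and 5 or deficient 1 and 2, and the macrophage covariate. Leaving out those pairs of libraries was added for the summed ratio after seeing the data.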

Additional observations from a re-analysis of the deposited data

Results flagged for a closer look

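Within each genotype, the highest and lowest library of each member were screened by the gap to the nearest library over the range of the group, against Dixon's 95% critical value of 0.71 for 5 libraries. Of 18 groups, 2 passed, and chance passes about 1 in 20. Mxd1 in deficient library 4 stood at 160.0 CPM, above the next deficient library at 140.7 CPM (gap over range 0.83). Mnt in WT 1 stood at 61.6 CPM, below the next WT library at 75.7 CPM (gap over range 0.74). WT 1 is also 1 of the 2 libraries with a high sum of macrophage markers, whose part in its Mnt level was not tested. Leaving out either library ended neither call.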

How the results depend on the processing

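All 23 alternatives kept the call and direction of Mycl, Mxd1, Mxd3, Mxd4, Mnt and Mga. Between 7 and 8 members passed in every setting, and 8 with any single library left out. Max did not pass in FPKM (Max log2 fold change 0.14 with either pseudocount, adjusted p = 0.060), nor Mxi1 with the macrophage covariate. The Myc log2 fold change, which passed under none, was -0.021 with upper-quartile normalization, -0.097 and -0.104 in FPKM with pseudocounts of 1 and 0.1, and ran from -0.037 to 0.098 with single libraries left out. The Hnrnpa3 log2 fold change likewise was -0.027, -0.083 and -0.084 in these 3 settings and ran from -0.049 to 0.13 with single libraries left out. The Trit1 log2 fold change was -0.021 and -0.022 in FPKM with the pseudocounts of 1 and 0.1. The summed MXD level minus summed MYC level (log2) lay between -0.51 and -0.42 with any single library left out. The replicate numbers are only names: same-numbered libraries deviated together with r from -0.19 to 0.23, and none of the deficient libraries correlated best with its own number. With a replicate block, 8 members passed and 7538 genes in all. The cause of these shifts was not tested. Depth did not limit the members, of which the lowest count in a library was 391.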

Other observations

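The deposited FPKM and the TMM-normalized CPM computed here from the deposited counts did not order the libraries of a member in the same way. TMM factors, which enter the CPM, ran from 0.96 in deficient library 3 to 1.08 in WT 1. For Mxd1, Mxd4 and Mnt, the highest ratio of FPKM to TMM-normalized CPM over the 10 libraries was 1.11 to 1.14 times the lowest. For Mxd3 the ratio was 0.68 in WT 3 and 0.43 to 0.51 in the other 9 libraries, so that WT 3 had 8.65 FPKM and 12.8 CPM while WT 4 had 5.36 FPKM and 12.2 CPM. For Max it was 0.52 in WT 1 and 0.39 to 0.43 elsewhere. For Mga it ran from 0.078 to 0.11, in libraries of both genotypes. Why these libraries differ between the tables was not tested.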
